A study of Bactrocera dorsalis with 3 samples.

Results

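The genes described here are maternal transcripts of the oriental fruit fly, Bactrocera dorsalis, that stood at a higher level in embryos of 2-4 hours post-oviposition (hpo) than in newly laid eggs. They were chosen from measured values, on FPKM, the deposited expression unit, which scales fragments to transcript length and library total. A member is a numbered gene on a nuclear scaffold, with a span under 100000 bases and an FPKM of 5 or more at 0-1 hpo. Its FPKM + 1 had to be at least 2-fold higher at 2-4 than at 0-1 hpo, while at 5-8 hpo it had to lie above 0.25 and below 4 times the 0-1 hpo value. The rule found 118 of 13489 genes. Of these, 12724 were open to the rule by position and span, and 6129 of those reached an FPKM of 5 at 0-1 hpo, called the maternal pool below. The rule also names 1 gene to leave out, Zn800, which met every value, at FPKM 126, 394 and 145 at the 3 ages.

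The study sequenced messenger RNA of whole embryos at 3 ages, 0-1 hpo, 2-4 hpo and 5-8 hpo, with 1 library per age. The labels give no strain, sex, genotype or treatment, and do not say how many embryos went into a library. Without replicates, differences between ages cannot be set against a spread, so p-values are absent. Each interval beside a fold is an exact 95% interval of its counts and covers counting error alone. In whole embryos, a wider spread of a transcript and a higher local level cannot be told apart.

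A fly egg is loaded during oogenesis with messenger RNA made by the mother, and the first divisions run on that supply. In Drosophila melanogaster, transcription from the embryo's own genome starts in a small early wave and then a broad one, while many maternal messages are degraded. Stored messages are also regulated through their poly-A tail, which is lengthened or shortened in the cytoplasm. These libraries were selected on poly-T beads, so a higher value can come with more transcripts or with longer tails. As FPKM is scaled to the library total, a higher value can also come with less of other transcripts. Here these cannot be told apart. The members are called maternal because they were already present at 0-1 hpo, a window that holds embryos of up to 1 hour of age.

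The gene tables held 68140879, 65069185 and 74817640 reads in order of age. Over the 6563 genes above FPKM 1 in all libraries, the median log2 ratio was -0.23 for 2-4 over 0-1 hpo and -0.37 for 5-8 over 0-1 hpo. A member therefore stood further above the typical gene than its own ratio shows. VIT1, a yolk protein gene and the one eggshell or yolk gene that could be matched by name, stood at FPKM 1.58, 3.02 and 1.13.

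Every member had many reads behind its values. The lowest read number of any member was 519, 1421 and 1053 in order of age, and the medians were 11376, 25036 and 21496. In newly laid eggs the members spanned FPKM 5.73 to 1908 with a median of 57.4. At 2-4 hpo they ranged from 17.1 to 4439.9 with a median of 137, and at 5-8 hpo from 12.1 to 3486 with a median of 109. Over the maternal pool the medians were 37.8, 28.1 and 27.6. Together the members took 4.90% of all reads at 0-1 hpo (Wilson 95% interval 4.90 to 4.91), 11.6% at 2-4 hpo (11.5 to 11.6) and 8.45% at 5-8 hpo (8.44 to 8.45). These intervals also cover counting error alone. Since each member was chosen for a higher value at 2-4 hpo, the larger share at that age follows from the rule. The 10 most abundant members supplied 37.2% of the members' reads at 2-4 hpo.

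A gain of this kind was uncommon, and lower values were more frequent. At 2-4 against 0-1 hpo, a 2-fold gain of FPKM + 1 was met by 5.55% of the 7310 genes that reached FPKM 1 at either age. Of the same 7310 genes, 1721 (23.5%) were at least 2-fold lower. In the maternal pool a 2-fold gain was met by 174 genes, 2.84%, against 1593 genes, 26%, at least 2-fold lower. The pool required an FPKM of 5 at 0-1 hpo, which leaves out genes that started low, so its shares lean towards lower values. The 118 members are 67.8% of those 174, and the rule itself fixed their direction. Another 54 of the 174 were left out because they stood at 4-fold or more at 5-8 hpo, and 1 because it stood at 0.25 or less of its 0-1 hpo value. The median ratio of FPKM + 1 at 2-4 over 0-1 hpo was 2.30 among members (range 2.00 to 8.16) and 0.83 in the pool. Most members sat close to the lower bound, with 85 below a ratio of 2.5, 15 at 3 or more and 6 at 4 or more. A ratio of 4 or more was met by 1.72% of the 7310 genes and by 0.326% of the pool.

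**Figure D1:**
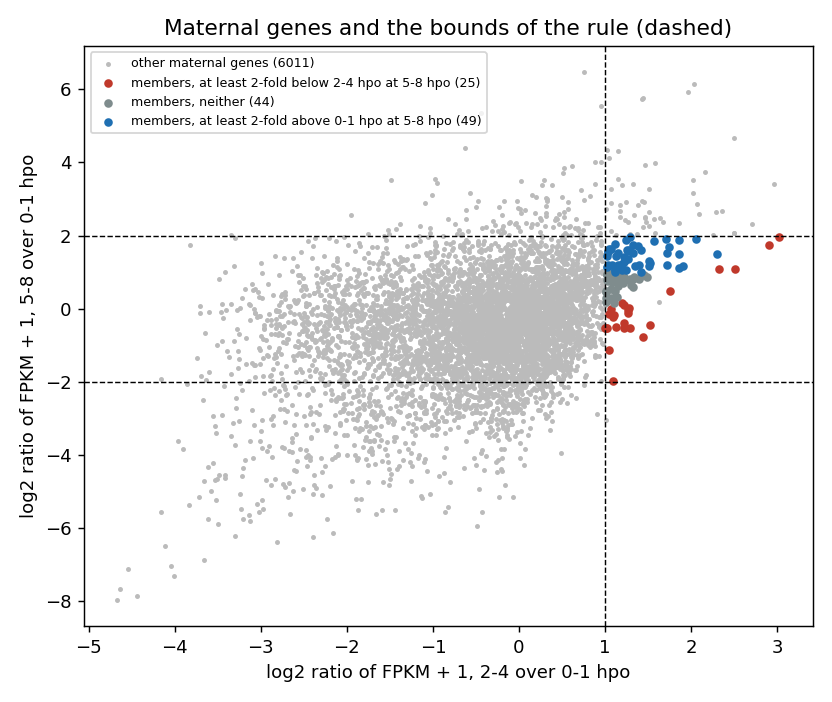
Each point is a gene of the maternal pool, with the log2 ratio of FPKM + 1 at 2-4 over 0-1 hpo across and at 5-8 over 0-1 hpo upward; dashed lines are the bounds of the rule. The 118 members (coloured by their later course) fill a narrow band right of the 2-fold line, while the 6011 other genes lie mostly to its left.

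Membership depends on how the libraries are scaled to each other. With median-of-ratios scaling, which divides each library by the median ratio of its genes to their geometric mean over libraries, 244 genes met the rule in place of 118, and 111 of the 118 were among them. On the TPM scale, which makes the FPKM of each library sum to the same total, 101 genes met it, 86 of them members. All 118 members stood above their 0-1 hpo value at 2-4 hpo on each of these scales, and the smallest ratio was 1.89, on the TPM scale. Each scale multiplies a whole library by the same factor, moving the members' median ratio from 2.30 to 2.17 (TPM) or 2.65 (median-of-ratios). With shifts of this size, the direction follows from the 2-fold bound and is no test of it.

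None of the 118 members has an informative symbol or synonym in the RefSeq gene table used for names. Named genes were rare in the maternal pool too, at 48 of 6129, and the rule left out Zn800, which is among those 48. The members are therefore given by their RefSeq identifier, and nothing is said of their function. A record was found for 114 of them, all protein coding, as were 99.6% of the matched pool genes. The named genes of the pool with the highest ratios after Zn800 were TREA, which encodes trehalase, at a ratio of 1.62, and Pgbd4, at 1.58.

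The largest ratio belonged to LOC105226703, on scaffold NW_011876347.1, plus strand, positions 1853187 to 1856237. Its FPKM was 38.3, 319 and 153 in order of age, from 6413, 51088 and 28049 reads. By FPKM without the pseudocount, it was 8.34-fold higher at 2-4 than at 0-1 hpo (8.13 to 8.56) and 2.09-fold lower again at 5-8 hpo (2.06 to 2.13). The 2-4 hpo value stands well above both others, and the 5-8 hpo value is still 3.98-fold above the egg (3.88 to 4.09), close to the upper bound of the rule. A neighbouring model on the other strand, LOC105226702, overlaps 129 bases of it and went the other way, at FPKM 55.2, 7.31 and 74.0.

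LOC105230916 followed, on NW_011876392.1, minus strand, 1640575 to 1643273. Its FPKM was 17.1, 135 and 60.2 at the 3 ages, 7.85-fold higher at 2-4 hpo (7.54 to 8.19) and then 2.24-fold lower (2.18 to 2.29). LOC105229745, on NW_011876383.1, minus strand, 1503236 to 1517975, stood at 20.1, 119 and 44.0. This was 5.91-fold higher (5.68 to 6.16), then 2.70-fold lower (2.62 to 2.78). LOC105225896, on NW_011876335.1, minus strand, 1220477 to 1222177, stood at 72.3, 367 and 156, 5.08-fold higher (4.95 to 5.20) and then 2.36-fold lower (2.31 to 2.40). These 4 genes with the largest ratios stood at 5-8 hpo more than 2-fold below their 2-4 hpo level and more than 2-fold above the egg. The rule, which keeps 5-8 hpo under 4 times the egg's value, sets much of this shape, since a gene with a gain above 4-fold can be a member only if it is lower again at 5-8 hpo. It left out 14 pool genes with a ratio of 4 or more because they stood at 4-fold or more at 5-8 hpo, among them LOC105230778, at FPKM 5.69, 51.3 and 69.9.

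The next genes by size of gain kept more of it. LOC105228102, on NW_011876367.1, plus strand, 1051192 to 1056779, was the most abundant of the 15 largest gains at 2-4 and 5-8 hpo, at FPKM 161, 799 and 456. It was 4.97-fold higher at 2-4 hpo (4.90 to 5.03) and 1.75-fold lower after that (1.73 to 1.77). LOC105228776, on NW_011876374.1, minus strand, 1445919 to 1448172, stood at 28.9, 123 and 111, 4.27-fold higher at 2-4 hpo (4.12 to 4.42) and not far below that level at 5-8 hpo. LOC105227059, on NW_011876352.1, plus strand, 418474 to 419752, stood at 24.0, 89.8 and 91.5. It was the 1 member whose counting interval for 5-8 over 2-4 hpo held no change, at 1.02 (0.987 to 1.05).

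The rest of the 15 differed in how far their 5-8 hpo level stood below that at 2-4 hpo. LOC105233713 stood at FPKM 22.3, 86.3 and 50.9, and LOC105228610 at 24.7, 92.2 and 54.4, so that both were part of the way back to the egg's level. LOC105226697, a single-exon model, stood at 30.8, 106 and 43.6, the smallest value left at 5-8 over 0-1 hpo among the 15, 1.42-fold (1.34 to 1.50). LOC105225217 stood at 31.7, 117 and 90.7, LOC105226879 at 31.2, 107 and 103, and LOC105228827 at 64.9, 216 and 187, so that these held most of the gain. LOC105226758, the shortest member with 435 bases, stood at 162, 537 and 371. LOC105222639 had the lowest 0-1 hpo level of any member and was highest at 5-8 hpo, at 5.73, 21.0 and 24.4. At 5-8 hpo 14 of the 15 were still at least 2-fold above 0-1 hpo on FPKM + 1.

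**Figure D2:**
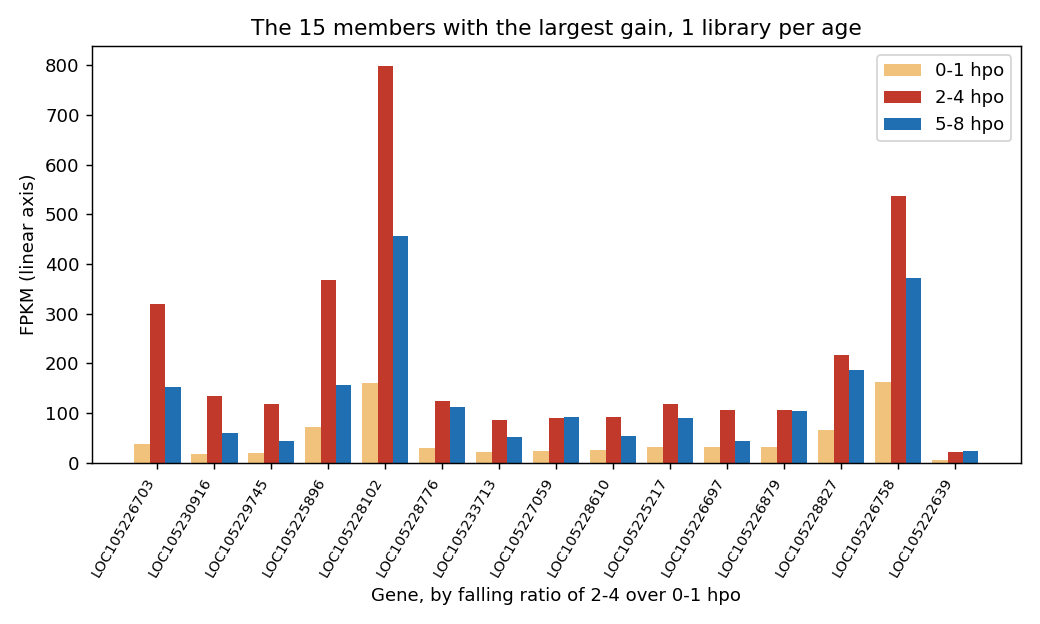
Bars give the FPKM of the 15 members with the largest ratio at 2-4 over 0-1 hpo, in order of that ratio from the left, with 1 bar per age and 1 library per age. The 2-4 hpo bar is the tallest for 13 of them, while LOC105227059 and LOC105222639 are slightly higher at 5-8 hpo.

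The 3 members with the highest levels at 2-4 hpo had ratios near the members' median. LOC105230085, on NW_011876386.1, plus strand, 2278729 to 2287851, was the most abundant at 2-4 hpo, at FPKM 1908, 4439.9 and 3486, and was 2.33-fold higher at 2-4 hpo (2.32 to 2.34). LOC105222162, on NW_011876228.1, plus strand, 304045 to 308013, had the most reads, 270679, 631095 and 522845, at FPKM 1460.4, 3566 and 2569. LOC105221966, on NW_011876218.1, plus strand, 311354 to 327570, stood at 1394, 3486 and 2429. All 3 were highest at 2-4 hpo and part of the way back at 5-8 hpo.

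Among the other 7 of the 10 most abundant, the level at 5-8 hpo set them apart. LOC105226868, on NW_011876349.1, minus strand, 1042569 to 1045741, stood at FPKM 1399.7, 3222 and 3257, and was 1.01-fold higher at 5-8 than at 2-4 hpo (1.01 to 1.02). LOC105230940, on NW_011876392.1, plus strand, 2125410 to 2127181, stood at 1266, 2651 and 1266, so that its 5-8 hpo level was back at the egg's, 1.00-fold (0.993 to 1.01). LOC105231328, LOC105226523, LOC105226870, LOC105232071 and LOC105227992 all lay between these, with 5-8 over 0-1 hpo folds of 1.91, 1.77, 1.69, 1.90 and 1.70. Each of these 5 has an exonic length under 1000 bases.

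After 2-4 hpo the members differed in course, with ratios of FPKM + 1 at 5-8 over 2-4 hpo from 0.12 to 1.58 and a median of 0.78. At 5-8 against 2-4 hpo, 25 of 118 were at least 2-fold lower on FPKM + 1, beside 21.1% of all 8142 genes compared and 23.8% of the maternal pool. None was 2-fold higher, which the bounds of the rule do not allow, beside 21.7% of the pool. Against 0-1 hpo, 53 of 118 were still at least 2-fold higher at 5-8 hpo, beside 23.8% of all 8148 genes compared and 11.6% of the pool. Only 2 were at least 2-fold lower, beside 27.2% and 32%. The rule used these values, so the counts describe the members and are no test of them.

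By counting error alone, the 5-8 hpo level was below the 2-4 hpo level in 89 members and above it in 28, with LOC105227059 in neither group. On FPKM + 1, 29 of 118 members were higher at 5-8 than at 2-4 hpo, beside 2842 of 6129 pool genes. The rule used these values. The intervals leave out variation between embryos, so a difference as small as 1.01-fold, in LOC105226868, was counted. For display, members were put in 3 groups, after their values were seen. The first group, 25 genes at least 2-fold lower than at 2-4 hpo, had median FPKM of 45.2, 135 and 60.2, and 16 of its genes were below their 0-1 hpo value of FPKM + 1 by 5-8 hpo. The second, 49 genes still at least 2-fold above 0-1 hpo, had median levels of 48.6, 119 and 154, and 29 genes were higher at 5-8 than at 2-4 hpo. The other 44 genes had medians of 64.6, 154 and 108. As the groups were cut on ratios at 5-8 hpo, their differences at that age follow from the cuts.

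**Figure D3:**
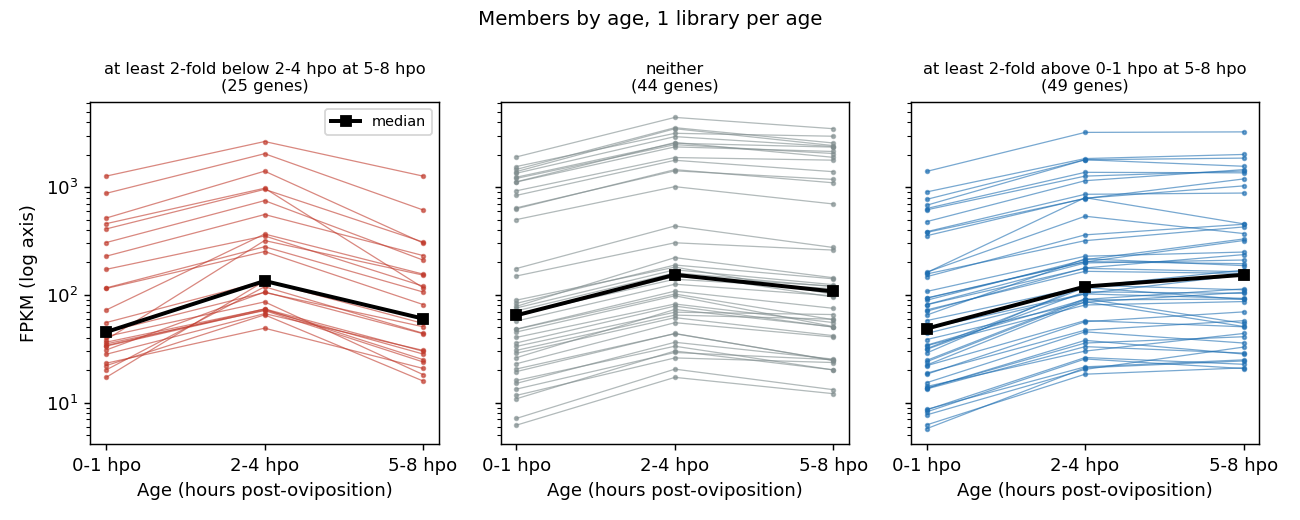
Each thin line is 1 member's FPKM (log axis) at the 3 ages, with 1 library per age, and black squares are group medians. The left panel holds the 25 genes at least 2-fold below their 2-4 hpo value at 5-8 hpo, the right panel the 49 other genes at least 2-fold above 0-1 hpo at 5-8 hpo, and the middle panel the remaining 44; the 5-8 hpo medians are 60.2 on the left, 108 in the middle and 154 on the right.

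In 5 genes the 5-8 hpo level stood furthest below that at 2-4 hpo. The gene with identifier 105231179, without a record in the name table, lies on NW_011876040.1, minus strand, 37557 to 38162, and stood at FPKM 458, 977 and 117. It was 8.38-fold lower at 5-8 than at 2-4 hpo (8.14 to 8.63) and 3.93-fold below the egg (3.81 to 4.05), next to the lower bound of the rule. LOC105232104, on NW_011876398.1, minus strand, 2744516 to 2747078, stood at 516, 1407 and 303, and was 4.65-fold lower at 5-8 than at 2-4 hpo (4.60 to 4.69). Both were abundant transcripts with a sharp peak.

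LOC105225004, on NW_011876317.1, plus strand, 874534 to 877385, stood at FPKM 41.1, 86.1 and 18.2 and was 4.74-fold lower at 5-8 than at 2-4 hpo (4.55 to 4.93). With 105231179, it was 1 of the 2 members at least 2-fold below the egg at 5-8 hpo. LOC105228736 stood at 22.0, 65.3 and 15.9, 4.11-fold lower (3.96 to 4.27), and LOC105222900 at 306, 750 and 210, 3.56-fold lower (3.54 to 3.59). In all 5 genes the 5-8 hpo value was the lowest of the 3.

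At the other end, 5 genes stood furthest above their 2-4 hpo level at 5-8 hpo. LOC105228857, on NW_011876375.1, plus strand, 2371299 to 2387504, stood at FPKM 7.69, 20.3 and 32.8, 1.61-fold higher at 5-8 than at 2-4 hpo (1.56 to 1.66). LOC105222510 stood at 93.1, 202 and 320 (1.58-fold, 1.55 to 1.61), and LOC105225888, a single-exon model, at 89.1, 212 and 330 (1.56-fold, 1.54 to 1.58). LOC105232768 stood at 380, 784 and 1191, and LOC105229998 at 48.6, 103 and 154. Each was higher at each later age. That the fold from 0-1 to 2-4 hpo was the larger follows from the bounds of the rule.

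Members were spread unevenly over levels. In the maternal pool the members' share was 1.52% of genes with an FPKM of 5 to under 20 at 0-1 hpo, 1.49% of those from 20 to under 100, and 1.48% of those from 100 to under 300. At 300 or more it was 30 of 243 genes, 12.3%. The pool's own median ratio of FPKM + 1 at 2-4 over 0-1 hpo was higher in each higher band, at 0.76, 0.82, 0.91 and 1.30, while the members' share stood apart in the highest band alone. The bands were chosen after the values were seen.

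The abundant members included a compact set of short genes. Among the 30 members at FPKM 300 or more, 17 had an exonic length under 1000 bases, with medians of 710 bases and of FPKM 838, 1796 and 1780 at the 3 ages. The whole pool held 98 such short, abundant genes, and their median ratio at 2-4 over 0-1 hpo was 1.64, with 40 of them from 1.5 to under 2, just under the bound for members. Of the 98, 75.5% were above 1, against 35.6% of the pool genes under FPKM 300. Most short, abundant genes of the pool were thus higher at 2-4 hpo, and the 17 members are those of the 98 that passed 2-fold. The 145 abundant genes of 1000 bases or more had a median ratio of 1.01, and 13 of them were members.

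**Figure D4:**
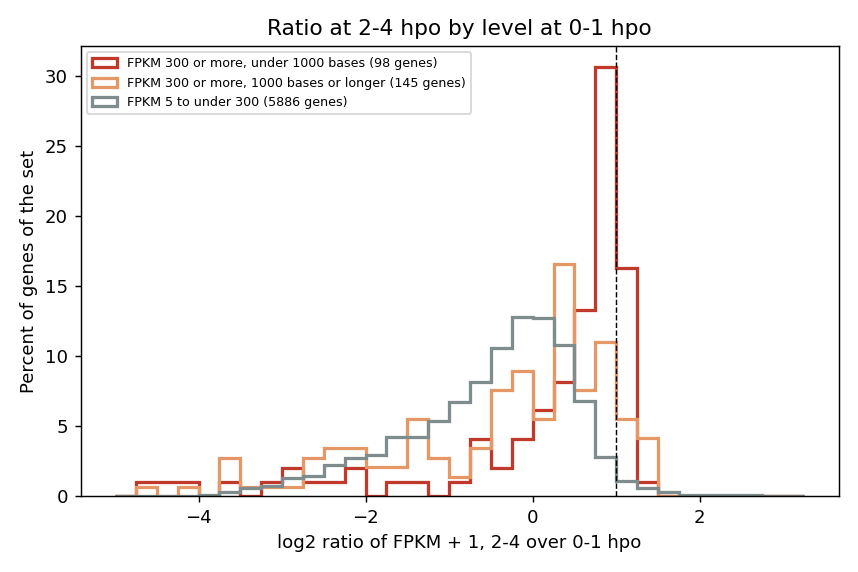
Lines give the percent of genes in each bin of the log2 ratio of FPKM + 1 at 2-4 over 0-1 hpo, for 3 sets of the maternal pool, and the dashed line marks 2-fold. The 98 short, abundant genes peak just left of the dashed line, with a median ratio of 1.64 (linear), while the 5886 genes under FPKM 300 peak near no change.

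The lower-level members had other proportions. The 88 members under FPKM 300 at 0-1 hpo had a median exonic length of 2732 bases and median FPKM of 34.6, 95.2 and 59.8. All 15 of the largest ratios were in this set. In the pool, 5886 of 6129 genes were under FPKM 300, and so were all 34 genes with a ratio of 3 or more. Over all members the median exonic length was 2255.5 bases and the median span 3104, against 1921 and 2826 in the maternal pool. Across the 118 members Spearman's rho between exonic length and FPKM at 0-1 hpo was -0.40, against -0.11 across the pool, and FPKM itself holds the length. Genes are not independent replicates, so these values are descriptions.

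**Figure D5:**
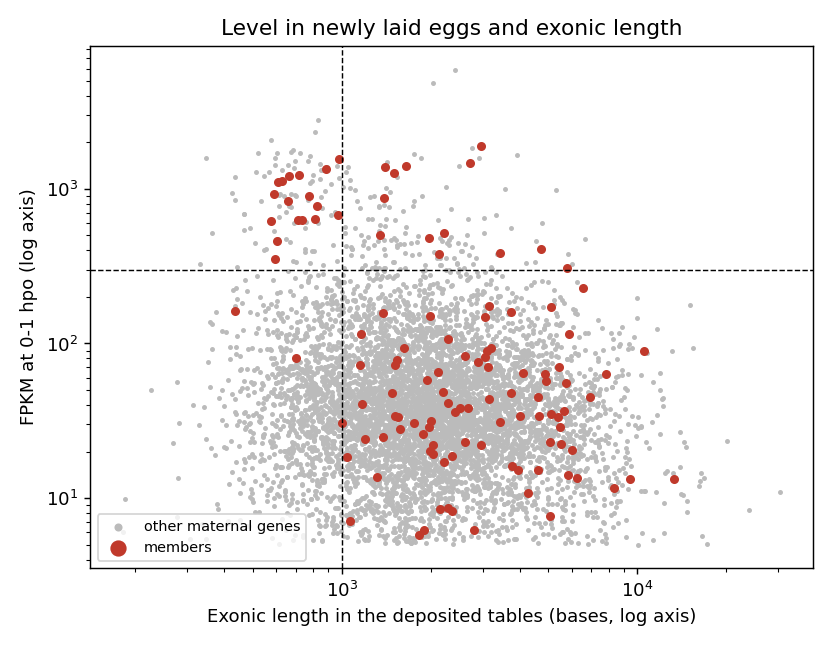
Each point is a gene of the maternal pool, with its exonic length across and its FPKM at 0-1 hpo upward, both on log axes; members are red and dashed lines mark 1000 bases and FPKM 300. The 17 short, abundant members lie in the upper left, and the 88 members under FPKM 300 lie below the horizontal line at a median of 2732 bases.

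Gene structure, which the rule used only through the limit on span, was near that of the pool. Models with a single exon (listed length the same as the span) were 10 of 118 members, 8.47% (Wilson 95% interval 4.67 to 14.9), against 7.13% of the pool (6.51 to 7.80). Of the 114 members with a record, 58.8% had 1 transcript in the name table, against 62.8% in the pool. Members lay on the plus strand in 58 cases and on the minus strand in 60. They were scattered over 84 scaffolds, with at most 5 on one, NW_011876398.1.

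Members were found at every span. They were 1.72% of pool genes with a span under 2000 bases, 1.85% from 2000 to under 5000, 2.25% from 5000 to under 20000 and 2.18% from 20000 to under 100000. In the pool, 19.5%, 23.2%, 27.7% and 32.0% of genes in these 4 bands were at least 2-fold lower at 5-8 than at 2-4 hpo. For members it was 8 of 38, 6 of 36, 6 of 29 and 5 of 15. The relation was weak, with Spearman's rho between span and the ratio at 5-8 over 2-4 hpo at -0.07 across the pool and -0.10 across members. The longest member, LOC105228558, with a span of 96686 bases, stood at FPKM 36.4, 73.8 and 25.1.

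Along the scaffolds 4 pairs of members were direct neighbours. LOC105222900 and LOC105222901, on NW_011876257.1, both on the minus strand with 2854 bases between them, stood at FPKM 306, 750 and 210 and at 55.3, 134 and 54.3, so both peaked at 2-4 hpo. LOC105228593 and LOC105228594, on NW_011876372.1 on opposite strands, stood at 45.2, 105 and 50.6 and at 57.1, 126 and 97.9. On NW_011876383.1, LOC105229745, LOC105229803 and LOC105229747 follow each other on the minus strand, the last 2 overlapping by 241 bases. LOC105229803 stood at 115, 253 and 81.3 and LOC105229747 at 229, 557 and 232. Of the 216 direct neighbours that were not members, 166 had an FPKM of 1 or more at 0-1 or 2-4 hpo. Of these, 9 (5.42%) were at least 2-fold higher at 2-4 hpo. The share over all genes, 5.55%, includes the members, so the shares are not on like sets. How often other genes form such neighbouring pairs was not tested.

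Overlapping models limit some values, since no source used here gives the strand setting of the counting and reads in an overlap cannot be told apart. Another model overlapped 27 of the 118 members, in 10 of them over at least 10% of the member's span. Overlaps were not counted for the rest of the pool. The overlap of 105231179 with LOC105231189, on the same strand, covered 60.4% of its span, and LOC105231189 had the same course, at FPKM 1412, 2747 and 360. LOC105231328 lies wholly within LOC105231329, which stood at only 12.6, 2.59 and 0.681. LOC105224436, LOC105227023, 105228886 and 105229676 also lie wholly within the span of another model. Levels depend on length as well. The length behind the deposited FPKM differed by over 0.1% from the listed one in 33 of 118 members, 28.0%, against 27.4% of the pool. Among these members were LOC105226703, LOC105228102 and LOC105230085, and their length behind the FPKM went down to 0.626 times the listed one. Folds of FPKM alone are not affected by that, but ratios of FPKM + 1 are: with RPKM recomputed from the counts and the listed length, LOC105231353 fell short of the 2-fold bound, at 1.99 in place of 2.02, which left 117 of the 118.

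Genes next to the bounds show how finely the rule divides. Just inside the 2-fold bound lay LOC105228558 at a ratio of 2.002 and LOC105222849 at 2.01, and just outside LOC105230271 at 1.997, with FPKM 1328, 2653 and 2932, and LOC105227113 at 1.99. For 7 of the 118 members the counting interval of the fold reached 2 or below. At the FPKM minimum LOC105222639 (5.73) and LOC105224436 (6.17) were in, and LOC105234244 (4.61) and the gene 109579230 (4.61) were out. At the upper bound for 5-8 over 0-1 hpo, LOC105226703 (3.91) and LOC105228857 (3.89) were in, and LOC105233204 (4.02) and LOC105230289 (4.03) were out. At the lower bound 105231179 (0.256) and LOC105225004 (0.456) were in, and LOC105231688 (0.122) was out. LOC105222901, with 80275 bases, was the next member below LOC105228558 in span, and no gene failed the rule on span alone.

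The bound on 5-8 hpo separated the members from 54 pool genes that gained 2-fold but stood at 4-fold or more at that age. Their median FPKM was 22.3, 69.3 and 205, so these medians started below those of the members and ended above them. Their higher 5-8 hpo level relative to the egg follows from the bound itself. Their median exonic length was 2002 bases, and single-exon models were 4 of 54, 7.41% (2.92 to 17.6), within the members' interval. Outside the nuclear scaffolds, 2 genes met all values of the rule, the mitochondrial genes COX1, a subunit of cytochrome c oxidase, at FPKM 2084, 4378 and 5277, and CYTB, cytochrome b, at 568, 1171 and 1487.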

How the data were processed

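The submitters' processing notes name the aligner HISAT2 2.0.4 and the read counter HTSeq 0.9.1. Settings, genome build, annotation and strand use were not given in the sources used. The authors deposited FPKM values for 13489 genes and, per the file headers, raw read counts with the position and exonic length of each gene. No per-sample column was left out (0 unused). Ratios for the rule and for counts of genes used FPKM + 1; folds of single genes used FPKM alone, and their intervals are exact binomial intervals of one count given the sum of both.

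With 1 library per age no test across genes was run. Names came from a RefSeq gene table of assembly ASM2337382v1, matched on gene identifier, and only names, gene types and transcript numbers were used. The members and lists were chosen with earlier results of these data known. Named genes were the 15 largest ratios at 2-4 over 0-1 hpo, the 10 most abundant at 2-4 hpo, the 5 largest and 5 smallest ratios at 5-8 over 2-4 hpo, and the genes next to each bound; others, such as neighbours and overlapping genes, were chosen after their values were seen. Gene families by product name, promoter motifs and protein sequences, though planned, were not analysed here. The rule and the intervals were tried on simulated counts that held counting error alone. This checks the calculation and cannot show variation between embryos or libraries. Python 3.11.15, pandas 2.3.3, scipy 1.17.1 and statsmodels 0.14.6 were used.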

Additional observations from a re-analysis of the deposited data

How the results depend on the processing

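Of 42 values recomputed under alternatives, 34 stayed within 1.5 times the reported count or within the interval of the reported share, and 8 did not. Median-of-ratios scaling gave 244 members in place of 118, and 1 in place of 2 members at least 2-fold below 0-1 hpo at 5-8 hpo; this scaling moves the typical change to a median log2 ratio of -0.03 at 2-4 over 0-1 hpo. By construction, a bound of 3-fold at 2-4 hpo left 15 members, of which 5 in place of 25 were at least 2-fold lower at 5-8 than at 2-4 hpo, 14 in place of 53 at least 2-fold above 0-1 hpo and 0 in place of 2 at least 2-fold below it. A limit of 2-fold between 5-8 and 0-1 hpo left 63 members. Leaving out the 27 members that overlap another model, an alternative added after seeing the data, left 91, of which 1 in place of 2 was at least 2-fold below 0-1 hpo. The number of members 2-fold higher at 5-8 than at 2-4 hpo, 0, is fixed by the bounds. Removing the filter on low values could not change the count of 2-fold gains among all genes, 406, so neither says anything of stability; a filter at FPKM 5 gave 304. No paired analysis was possible because there was a single library for each age.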
